A study of Mus musculus with 12 samples.

Results

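The subject is the set of 86 genes whose symbols name proteins of the cytosolic ribosome, out of 23235 gene symbols measured in mouse skin. A gene was a member if its symbol was Rpl or Rps followed by a number, or was Rpsa, Rplp0, Rplp1 or Rplp2. The 10 Rps6k kinases and the 3 symbols ending in -ps were left out. Of the members, 77 were core genes (46 of the large and 31 of the small subunit) and 8 were paralogs of a core gene (Rpl10l, Rpl36al, Rpl39l, Rpl3l, Rpl7l1, Rpl22l1, Rps27l and Rps4y2). The last, Rps19bp1, matched the letters of the rule but encodes a protein that binds Rps19, and it was counted but kept apart.

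All mice were of the FVB strain, and polyadenylated RNA was sequenced from 4 groups of 3 libraries. CWO papillomas were benign skin tumours from mice given 1 dose of 400 nmol DMBA, a carcinogen, then the tumour promoter TPA at 10 nmol in repeated applications, and at last 20% camphor white oil (CWO), a distillate of the camphor tree, for 6 weeks. Vehicle papillomas came from mice with the same DMBA and TPA history whose last 6 weeks were on acetone. In both tumour groups the mice were shaved at 6 to 7 weeks of age, and each library pooled 4 tumours of 1 mouse that had not turned malignant. CWO epidermis was taken 24 h after one application of 400 µL of 20% CWO to shaved skin, and vehicle epidermis 24 h after acetone, in neither case with DMBA or TPA. The age of the epidermis mice was not given. Of 5 mice treated, the 3 with the best RNA were sequenced. Epidermis was lifted off with ammonium thiocyanate and papillomas were homogenised whole, so tissue, isolation method, mouse history and length of treatment cannot be told apart.

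The cytosolic ribosome carries out protein synthesis, and its small subunit decodes the mRNA while its large subunit forms the peptide bond. Nearly every core protein is present in one copy per ribosome, the acidic stalk proteins Rplp1 and Rplp2 being the exception. The mRNAs of these genes are among the most abundant in dividing cells such as basal keratinocytes, and they start with a run of pyrimidines (the 5′ terminal oligopyrimidine, or TOP, motif) through which mTOR signalling controls their translation. The mouse genome also holds many processed pseudogenes of this family, whose sequence is close to that of the parent mRNA.

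Pyrimidine runs were looked for in the 30 bases around each start site (15 before it and 15 from it) in RefSeq's GRCm38.p6 promoter table, in which 56 of the 77 core genes and 7 of the 8 paralogs had an entry. Where a gene had several starts, the one with the longest run was taken. The windows below are examples, of 4 core genes that hold a run of at least 8 bases and of 3 paralogs whose expression is described further on. Capitals mark the longest stretch of only C and T on the gene's strand.
Rps6 (chr4:86857353-86857382, minus strand): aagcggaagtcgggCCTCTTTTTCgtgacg
Rpl38 (chr11:114668565-114668594, plus strand): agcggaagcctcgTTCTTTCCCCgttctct
Rplp2 (chr7:141447636-141447665, plus strand): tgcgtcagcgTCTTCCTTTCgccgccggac
Rpl7a (chr2:26910792-26910821, plus strand): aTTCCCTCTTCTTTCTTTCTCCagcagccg
Rpl22l1 (chr3:28805493-28805522, plus strand): gtgcggcgcaagcccgTTCTCTTCCCacgg
Rpl7l1 (chr17:46782642-46782671, minus strand): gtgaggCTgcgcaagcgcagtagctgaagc
Rpl3l (chr17:24727811-24727840, plus strand): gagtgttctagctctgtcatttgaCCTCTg
A stretch of at least 8 such bases stood in 25 of 56 core genes (44.6%) and in 2 of 7 paralogs (28.6%). It stood in 3760 of the 27025 symbols of the table (13.9%) and in 1394 of the 9368 symbols with at least 1 FPKM in 3 libraries (14.9%). In the windows shown, the run was 10 bases long in Rps6, Rpl38, Rplp2 and Rpl22l1 and 21 in Rpl7a, against 5 in Rpl3l and 2 in Rpl7l1. In the whole 300 bases of the table's promoters, the letters CCGGAAG on either strand were found in 41.1% of the core genes, 9.93% of all symbols and 18.8% of the expressed ones, and AAGATGGC in 8.93%, 3.19% and 4.84% of the same sets. These matches describe the sequence only.

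Papillomas devoted a smaller share of their measured transcripts to ribosomal protein genes than epidermis did, while CWO and vehicle libraries did not differ in it by more than their spread. FPKM (fragments scaled by transcript length and by library depth) depend on the length taken for each gene and on how fragments of shared sequence were assigned. Levels of different genes are set side by side only with that limit. The members made up 7.22, 7.88 and 7.35% of the summed FPKM in CWO papillomas, 7.74, 7.51 and 6.97% in vehicle papillomas, 12.2, 11.0 and 11.7% in CWO epidermis, and 10.9, 12.7 and 10.8% in vehicle epidermis. Every papilloma library was below every epidermis library, and within each tissue the CWO and vehicle libraries overlapped. The median core gene stood at 309 ± 8.12 FPKM in CWO papillomas, 312 ± 7.81 in vehicle papillomas, 506 ± 36.5 in CWO epidermis and 485 ± 62.0 in vehicle epidermis (SD, n = 3 each).

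**Figure D1:**
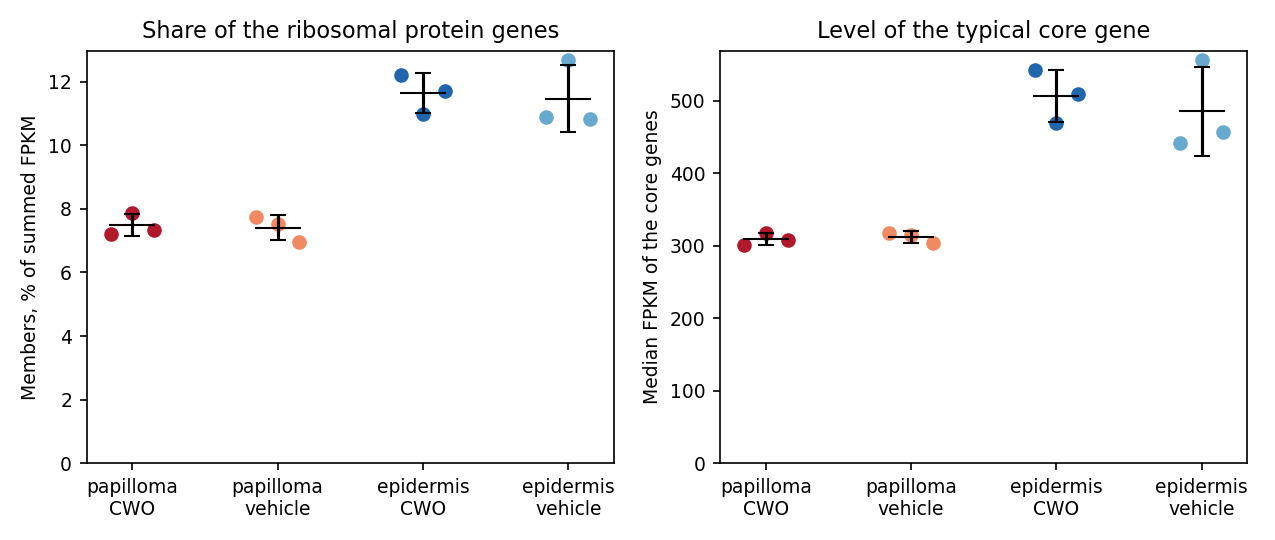
Left, the members' share of the summed FPKM (%); right, the median FPKM of the 77 core genes; points are libraries, horizontal bars group means and whiskers 1 SD, n = 3. All 6 papilloma libraries lie between 6.97 and 7.88% and all 6 epidermis libraries between 10.8 and 12.7%.

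Although the proteins assemble in nearly equal numbers, the FPKM of their genes were far from equal. The highest group mean was that of Rplp1 in all 4 groups, 3289 FPKM in CWO papillomas, 3249 in vehicle papillomas, 7866 in CWO epidermis and 8201 in vehicle epidermis. Among the next in mean level over all libraries were Rpl41, which encodes the smallest ribosomal protein, Rps9, which encodes a small-subunit protein, and Rpl8, which encodes a large-subunit protein. The 5 highest core genes of each group held 26.2% of the summed core FPKM in CWO papillomas, 26.1% in vehicle papillomas, 29.6% in CWO epidermis and 30.0% in vehicle epidermis. Core genes above 1000 FPKM numbered 14 in each papilloma group and 24 in each epidermis group. At the low end were the paralogs Rpl10l (listed at 0 in all 12 libraries), Rpl39l, Rps4y2 and Rpl3l, and the core gene Rpl26, whose value is taken up with the genes listed at the same place.

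The tissue comparison was made once within each treatment, so the 2 comparisons share no library. In vehicle-treated mice, 61 of 85 members tested (71.8%) were lower in papillomas and 4 were higher, against 38.2% of all genes lower and 31.7% higher (69.9% in all; limma on log2(FPKM + 1), Benjamini-Hochberg adjusted p under 0.05 over all genes). The 2 groups did not overlap for 67 of the 85 members (78.8%) and for 74.4% of all genes. The members' median log2 fold change was -0.58, and that of all 12824 genes tested -0.07. In CWO-treated mice, 67 of 84 members (79.8%) were lower and 2 higher, against 39.6% and 29.1% of all genes (68.7% in all), with a median of -0.67 for the members and -0.11 for all genes. Here 72 of 84 members (85.7%) and 74.0% of all genes did not overlap. The same 60 members were lower under both treatments, 98.4% of the vehicle list and 89.6% of the CWO list. Both subunits took part: in vehicle-treated mice 35 of the 46 large-subunit and 23 of the 31 small-subunit core genes were lower, and in CWO-treated mice 38 and 24 were. Rpl3l and Rps4y2, called lower, reached the minimum of 1 FPKM in 3 libraries only through epidermis, and Rpl39l, called higher under vehicle, only through papillomas. With at least 1 FPKM asked of every library, 60 of 81 members were lower and 2 higher under vehicle, and 66 of 82 lower and 2 higher under CWO. Of all genes, 4078 of 10674 were then lower and 3239 higher under vehicle, and 4118 of 10684 lower and 3021 higher under CWO. In bulk tissue, fewer cells of a type and less RNA per cell cannot be told apart.

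**Figure D2:**
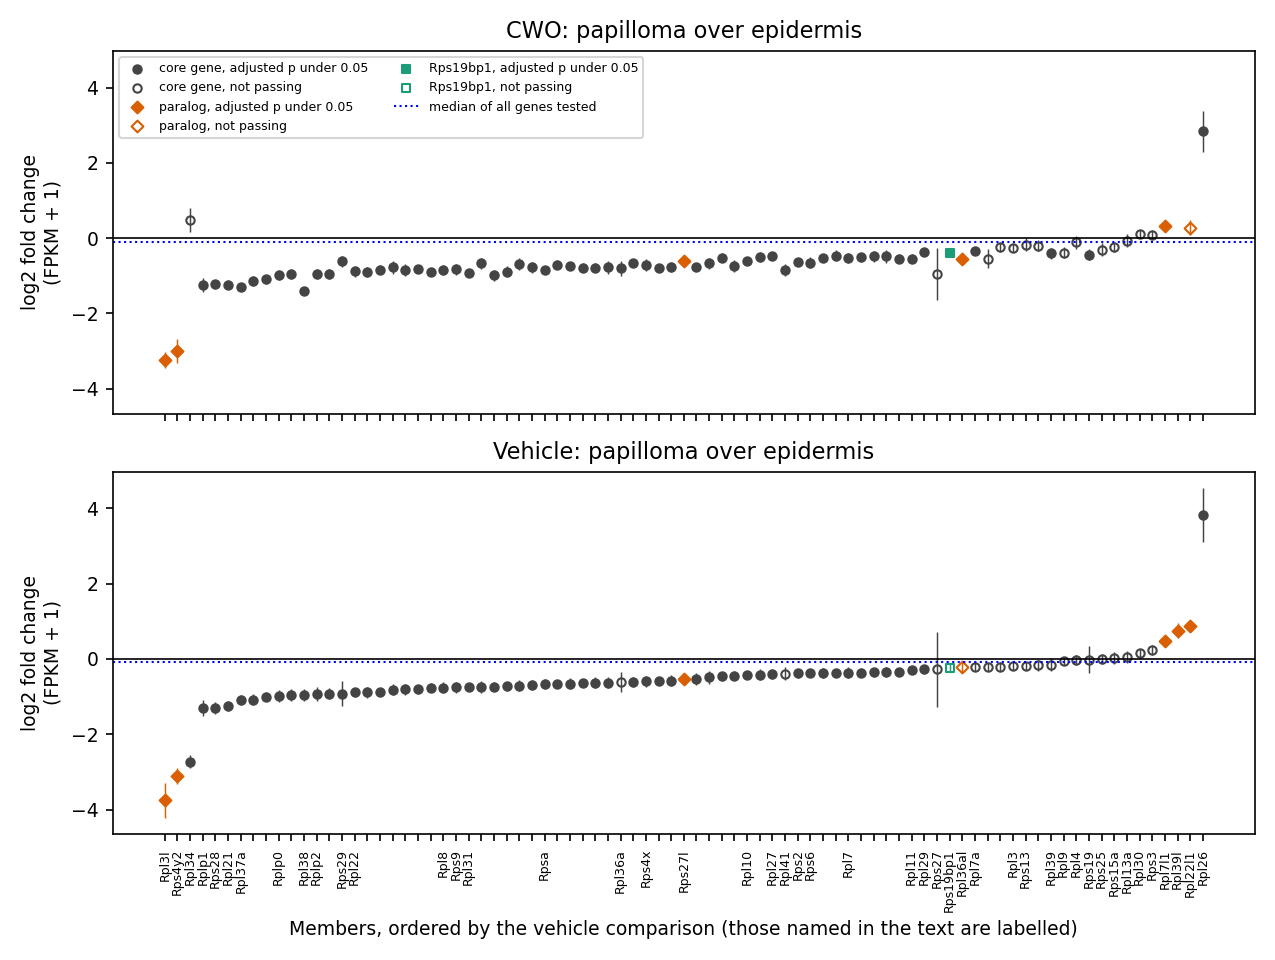
Log2 fold change of FPKM + 1, papilloma over epidermis, for the members tested and reported, in CWO-treated mice (upper panel) and vehicle-treated mice (lower panel); whiskers are 1 SE, filled symbols have an adjusted p under 0.05 and the dotted line is the median of all genes. Most core genes lie in a band below the dotted line in both panels, with Rpl3l, Rps4y2 and Rpl34 lowest and Rpl22l1 and Rpl26 highest in the lower one. Rpl34 and Rpl26 are shown by their own entries, without the entry listed at the same place.

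Other cell types and the scale bear on these counts. All 17 markers of skeletal muscle were lower in papillomas under both treatments. Their summed level ranged over 10.8 to 74.3 FPKM in CWO papillomas and 59.6 to 461 in vehicle papillomas, against 3337 to 4338 in CWO epidermis and 4021 to 19778 in vehicle epidermis, and none was at 0 throughout a group. With the mean of the muscle list as a covariate, 2 members were lower and 0 higher in the vehicle comparison, with a median of -0.40 for the members and -0.15 for all genes, and 1515 of all genes were called in place of 8961. The tissues do not overlap on this covariate. All 8 sebaceous markers were also lower in papillomas under both treatments, and 5 of 6 fibroblast and 3 of 3 endothelial markers higher. Of 7 immune markers 4 were higher and 3 lower under either treatment, with sums of 5410.3 to 9326 FPKM over the papilloma libraries and 193 to 312 over the epidermis libraries. These sums do not describe every immune marker, since single log2 fold changes ran from -3.97 to 6.02 in vehicle-treated mice (median 0.62). Hair follicle markers (8) and keratinocyte markers (10) moved both ways, with 5 of each higher and 3 and 2 lower in vehicle-treated mice. The keratinocyte markers were abundant in both tissues, summing to 26999 to 35405 FPKM over the papilloma and 17567 to 22513 over the epidermis libraries. The part of these cell types in the members' change was not tested. Short transcripts as a class were also lower: the median log2 fold change of other genes under 1000 bases was -0.29 in vehicle-treated and -0.46 in CWO-treated mice, against -0.04 and -0.08 for longer ones, and 58 of the 77 core genes have a transcript under 1000 bases. The core genes' own fold changes had a Spearman correlation of 0.16 with transcript length under either treatment. Scaled by the median of all genes' ratios, 44 of 85 members were lower and 4 higher in vehicle-treated mice (median -0.49). Of all 12824 genes, 4613 were then lower and 4654 higher. In CWO-treated mice 61 of 84 members were lower and 3 higher (median -0.53), against 4457 lower and 4391 higher of 12724 genes. The median of all genes was at 0.01 under either treatment.

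The stalk genes differed more between the tissues than the median member did (log2 fold change -0.58 under vehicle and -0.67 under CWO). The stalk of the large subunit recruits the translation factors, with Rplp0 as its base and Rplp1 and Rplp2 as its arms. Rplp1 (mm9 chromosome 9, 61761089 to 61762317) had 3193, 3641 and 3032 FPKM in CWO papillomas and 3295, 3322 and 3129 in vehicle papillomas, against 8979, 8499 and 6119.9 in CWO epidermis and 7424, 10392 and 6787 in vehicle epidermis. No papilloma library came near an epidermis library, and the log2 fold change was -1.31 ± 0.210 (SE, adjusted p = 0.000732) under vehicle and -1.24 under CWO. Rplp0 averaged 1265 ± 94.0 FPKM in CWO papillomas and 1262 ± 52.1 in vehicle papillomas, against 2480.3 ± 181 in CWO epidermis and 2524 ± 515 in vehicle epidermis (SD, n = 3 each), a log2 difference of -0.98 under vehicle and -0.97 under CWO. For Rplp2 the log2 fold changes were -0.94 and -0.96, and all 4 stalk values of Rplp0 and Rplp2 passed the test.

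Among the other core genes of the large subunit, the largest decreases were those of Rpl34 and Rpl21 in vehicle-treated mice and of Rpl38 and Rpl37a in CWO-treated mice. For Rpl34 this held for its own entry alone. Its sum with Rpl34-ps1, listed at the same place, averaged 143 FPKM in vehicle papillomas and 185 in vehicle epidermis. Rpl21 had 49.1, 51.9 and 44.2 FPKM in CWO papillomas and 53.3, 52.2 and 44.9 in vehicle papillomas, against 116, 102 and 130.0 in CWO epidermis and 104, 141 and 117 in vehicle epidermis, with log2 fold changes of -1.25 under vehicle and -1.24 under CWO. Rpl38, which in mouse embryos is needed for the translation of a subset of Hox mRNAs, had 366, 379.6 and 321 FPKM in CWO papillomas and 462, 356 and 414 in vehicle papillomas, against 921, 988 and 911 in CWO epidermis and 729, 978 and 693 in vehicle epidermis. Its log2 fold change was -1.40 under CWO and -0.95 under vehicle, and the test of the difference between these was not passed (-0.45, adjusted p = 0.48). The groups were fully apart for both genes. Rpl37a, a zinc-finger protein of the large subunit, fell by 1.10 on the log2 scale in vehicle-treated and by 1.30 in CWO-treated mice.

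In the small subunit, Rps28 had the largest decrease of the core genes under both treatments. It had 673, 776 and 688 FPKM in CWO papillomas and 659, 727 and 579.7 in vehicle papillomas, against 1563, 1795 and 1624 in CWO epidermis and 1539, 1929.9 and 1386 in vehicle epidermis. The log2 fold change was -1.30 ± 0.161 (SE, adjusted p = 0.000182) under vehicle and -1.22 under CWO, with no overlap between tissues. Rps6, the substrate of the S6 kinases downstream of mTOR, changed less, with 442, 468 and 405 FPKM in CWO papillomas and 459.7, 433 and 413 in vehicle papillomas, against 705, 571 and 808 in CWO epidermis and 518, 606 and 570.4 in vehicle epidermis. Its log2 fold change was -0.37 (adjusted p = 0.014) under vehicle, a call lost without vehicle papilloma library 2 or 3, and -0.65 (adjusted p = 0.0041) under CWO. Rpsa, a small-subunit protein also known as a laminin receptor precursor, averaged 454 ± 28.1 FPKM in CWO papillomas and 442 ± 27.9 in vehicle papillomas, against 816 ± 56.3 in CWO epidermis and 711 ± 116 in vehicle epidermis (SD, n = 3 each), and was lower under both treatments (-0.67 and -0.85).

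A minority of core genes had values near 0 in vehicle-treated mice, here picked out after their values were seen. Rps3, which lines the entry of the mRNA channel, had 898, 949 and 879 FPKM in CWO papillomas and 995, 848 and 807 in vehicle papillomas, against 908, 753 and 914 in CWO epidermis and 675, 853 and 723 in vehicle epidermis. These groups overlapped, and the log2 fold changes of 0.24 and 0.09 did not pass the test. Rpl13a, Rps15a, Rpl4 and Rps25 had log2 fold changes of 0.05, 0.03, -0.03 and -0.01 in vehicle-treated mice, also without passing. In CWO-treated mice they stood at -0.07, -0.25, -0.11 and -0.31 in that order, again without passing, although the groups were apart for Rps15a. Core genes with a pyrimidine run of at least 8 bases had a median log2 fold change of -0.59 in vehicle-treated and -0.77 in CWO-treated mice (25 genes, 19 and 20 lower), and those without one -0.42 and -0.66 (31 genes, 22 and 25 lower).

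Rpl22l1 and Rpl7l1 rose in vehicle papillomas, while most core genes fell. Rpl22l1 can take the place of Rpl22, a large-subunit protein that in mouse restrains its paralog's expression. It (mm9 chromosome 3, 28704432 to 28706337) was the paralog with the largest increase, at 128, 141 and 164 FPKM in CWO papillomas and 157, 152 and 135 in vehicle papillomas, against 118, 89.6 and 157 in CWO epidermis and 79.2, 72.8 and 89.9 in vehicle epidermis. Under vehicle the tissues were fully apart, with a log2 fold change of 0.87 ± 0.109 (SE, adjusted p = 0.000188). Under CWO they overlapped, and 0.28 did not pass (adjusted p = 0.235). Rpl22 went the other way, at 124, 148 and 129 FPKM in CWO papillomas and 149, 132 and 123 in vehicle papillomas, against 269, 201 and 276 in CWO epidermis and 228, 270.4 and 250.2 in vehicle epidermis (log2 fold changes of -0.89 under vehicle and -0.88 under CWO, both called).

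The ratio of the pair showed the same contrast without any scaling between libraries. Rpl22l1 over Rpl22 was 1.03, 0.955 and 1.28 in CWO papillomas, 1.05, 1.15 and 1.10 in vehicle papillomas, 0.437, 0.445 and 0.571 in CWO epidermis, and 0.347, 0.269 and 0.359 in vehicle epidermis. In FPKM, the paralog stood at about the level of the parent in papillomas and below it in epidermis. The mean fragments recovered from the FPKM and its confidence interval in vehicle papillomas numbered 4465 for Rpl22 and 718 for Rpl22l1. The level of the ratio therefore rests on the transcript lengths used, and equal FPKM need not mean equal mRNA. The ratio did not overlap between tissues under either treatment or between CWO and vehicle epidermis (two-sided exact permutation p = 0.1 for each, the smallest that 3 against 3 libraries allow), and overlapped between CWO and vehicle papillomas (exact permutation p = 0.9).

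**Figure D3:**
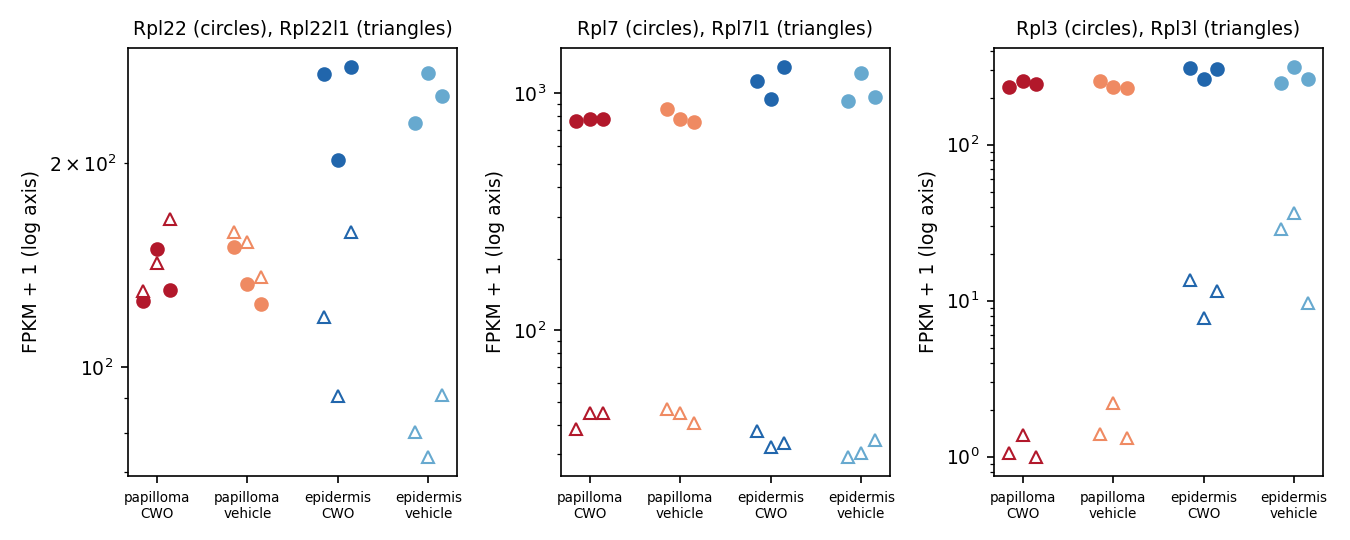
FPKM + 1 (log axis) of 3 core genes (circles) and their paralogs (triangles) in each library of the 4 groups. In both papilloma groups Rpl22l1 lies at the level of Rpl22 and in both epidermis groups below it, Rpl7l1 is higher in papillomas, and Rpl3l is near 0 in papillomas.

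Rpl7l1, a paralog of the large-subunit gene Rpl7, was higher in papillomas under both treatments. It had 37.5, 44.0 and 43.7 FPKM in CWO papillomas and 45.4, 43.7 and 39.8 in vehicle papillomas, against 36.7, 31.1 and 32.5 in CWO epidermis and 28.4, 29.3 and 33.6 in vehicle epidermis, with log2 fold changes of 0.49 (adjusted p = 0.0028) under vehicle and 0.31 (adjusted p = 0.0317) under CWO. Its groups did not overlap. The call under CWO was lost without CWO epidermis library 2 or 3 or CWO papilloma library 2 or 3 (adjusted p = 0.0656 to 0.110). The call under vehicle was lost without the 2 muscle-rich epidermis libraries, which leaves 1 (0.34, adjusted p = 0.0537). Rpl7 itself was lower, at -0.36 (adjusted p = 0.0473) under vehicle and -0.52 (adjusted p = 0.00885) under CWO. Its call under vehicle was lost without vehicle epidermis library 2 or 3 or any 1 of the vehicle papilloma libraries (-0.24 to -0.42, adjusted p = 0.0586 to 0.138). Rpl39l, a paralog known from testis, lay next to the FPKM minimum of 1, at 1.60 ± 0.317 FPKM in vehicle papillomas and 0.569 ± 0.434 in vehicle epidermis (SD, n = 3 each), and was tested only because papillomas passed it.

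Rpl3l replaces Rpl3 in striated muscle, and it was the member with the largest decrease. It had 0.0579, 0.382 and 0 FPKM in CWO papillomas and 0.403, 1.21 and 0.308 in vehicle papillomas, against 12.6, 6.74 and 10.6 in CWO epidermis and 27.7, 35.2 and 8.59 in vehicle epidermis. It was tested only because epidermis passed the minimum, so the log2 fold changes of -3.75 under vehicle and -3.23 under CWO are given as a description. It moved with the muscle markers, whose mean log2 level per library was highest in the same 2 vehicle epidermis libraries (8.23 and 8.71, against 6.56 in the other). Rpl3, the core gene of the peptidyl transferase region, was at 244 ± 10.6 FPKM in CWO papillomas and 239 ± 14.0 in vehicle papillomas, against 292 ± 25.6 in CWO epidermis and 273 ± 34.9 in vehicle epidermis (SD, n = 3 each), and did not pass under either treatment. Rps4y2, an older symbol of Rps4l that RefSeq types as a transcribed pseudogene, had 2.49, 0.811 and 0.316 FPKM in CWO papillomas and 0.978, 1.24 and 0.350 in vehicle papillomas, against 18.0, 14.2 and 13.8 in CWO epidermis and 11.9, 17.9 and 14.7 in vehicle epidermis. Its log2 fold changes, likewise a description, were -3.11 under vehicle and -3.00 under CWO, and those of its relative Rps4x, the X-linked core gene of the small subunit, -0.60 and -0.72. Of the rest, Rps27l, a p53-responsive relative of Rps27, was lower under both treatments (-0.53 and -0.60), and Rpl36al, a relative of Rpl36a, was lower under CWO (-0.56), while under vehicle -0.22 did not pass.

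For 4 core genes the deposited tables list another gene at the same place of mm9, and the share of the summed FPKM held by each entry varied from library to library. How fragments were assigned to the 2 entries was not tested. Rpl34 (mm9 chromosome 3, 130429748 to 130433226), a large-subunit gene, had 26.9, 29.0 and 28.7 FPKM in CWO papillomas, 31.4, 23.4 and 22.3 in vehicle papillomas, 30.4, 10.6 and 24.2 in CWO epidermis, and 172, 214 and 143 in vehicle epidermis. Rpl34-ps1 ran the other way, with 101, 124 and 114 FPKM in CWO papillomas, 123, 107 and 124 in vehicle papillomas, 179, 185 and 186 in CWO epidermis, and 0.00964, 0.0678 and 26.7 in vehicle epidermis. Vehicle epidermis thus stood apart on both entries, in opposite directions. Their sum was 128, 153 and 143 FPKM in CWO papillomas, 154, 129.9 and 146 in vehicle papillomas, 209, 196 and 210.2 in CWO epidermis, and 172, 214 and 169.5 in vehicle epidermis. On the sum, CWO and vehicle epidermis overlapped, while each papilloma library was below each epidermis library.

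**Figure D4:**
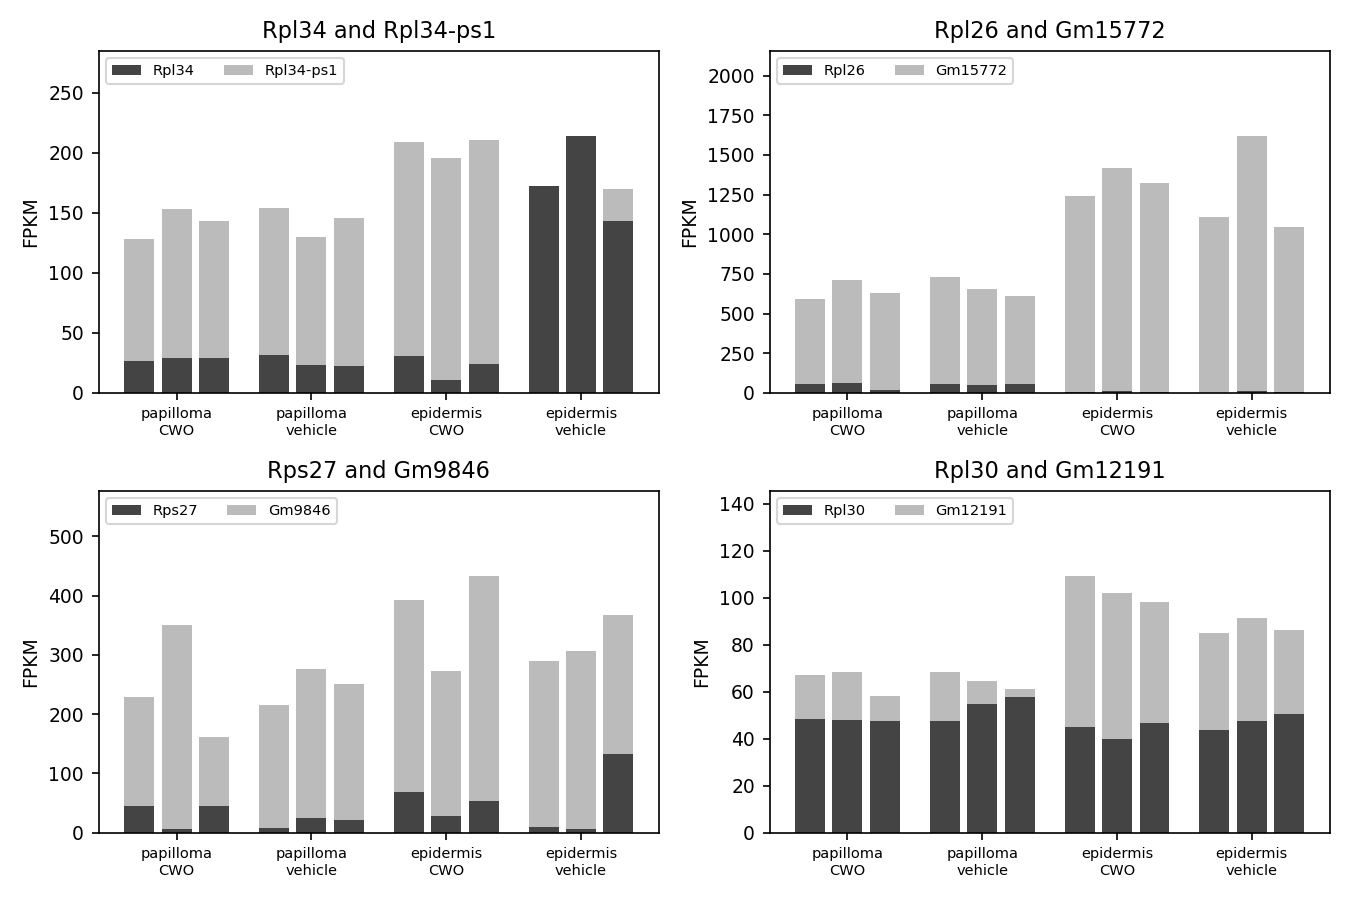
FPKM of 4 core genes (dark) stacked with the entry listed at the same place (light), one bar per library in the 4 groups. The total of the Rpl34 bars in epidermis runs from 169.5 to 214 in all 6 libraries, while the dark part fills nearly the whole bar only in vehicle epidermis. The light parts of the Rpl26 and Rps27 bars have the Cufflinks status LOWDATA in all 12 libraries.

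The only core gene called higher in papillomas also has another entry at its place. Rpl26 (mm9 chromosome 11, 68715067 to 68718036), also of the large subunit, had 55.4, 59.4 and 18.2 FPKM in CWO papillomas and 53.9, 47.9 and 54.0 in vehicle papillomas, against 2.85, 11.1 and 2.82 in CWO epidermis and 5.31e-05, 9.08 and 4.10 in vehicle epidermis, a log2 increase of 3.83 under vehicle and 2.84 under CWO. Gm15772, listed at its place, had 602 ± 58.6 FPKM in CWO papillomas and 612 ± 59.5 in vehicle papillomas, against 1323 ± 83.6 in CWO epidermis and 1253 ± 309 in vehicle epidermis (SD, n = 3 each). With both entries added the direction turned, to -0.90 (adjusted p = 0.00257) under vehicle and -1.04 (adjusted p = 0.000107) under CWO. This turn rests on Gm15772, whose values carry the Cufflinks status LOWDATA in all 12 libraries and were used only in these sums.

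Rpl30, a large-subunit protein, stood at 0.17 under vehicle and 0.12 under CWO without passing, and with Gm12191 added at -0.43 (adjusted p = 0.00206) and -0.67 (adjusted p = 0.000465). Rps27, a zinc-finger protein of the small subunit, ranged from 6.47 to 133 FPKM within vehicle epidermis alone, and with Gm9846 added its sum ran from 216 to 276 FPKM in vehicle papillomas, against 289.8 to 367 in vehicle epidermis (log2 fold change -0.38, adjusted p = 0.0333). Under CWO the sum ran from 162 to 351 FPKM in papillomas, against 273 to 433 in epidermis, and -0.61 did not pass (adjusted p = 0.0844). Gm9846 also has the status LOWDATA in all 12 libraries. With the sums in place of the single entries, all 4 core genes were lower in papillomas under vehicle, Rpl34 at -0.36 (adjusted p = 0.0268). Without these 4 genes, 57 of 73 core genes were lower and 0 higher in vehicle-treated mice. RefSeq types Rpl34-ps1 and Gm9846 (there named Rps27rt) as protein coding and Gm15772 and Gm12191 as transcribed pseudogenes, and places them away from the genes whose place the deposited tables give them. The other -ps symbols, Rplp2-ps1 and Rps19-ps3, are listed at places of their own and were not added to a member. Rplp2-ps1, with a status other than OK in all 12 libraries, averaged 957 FPKM in CWO papillomas, 959 in vehicle papillomas, 1888 in CWO epidermis and 1783 in vehicle epidermis. Rps19-ps3 averaged 187, 181, 186 and 177 FPKM in the same order.

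In epidermis 24 h after CWO, no ribosomal protein gene passed the test once the entry at the place of Rpl34 was added to it. Of 84 members tested, 0 were higher and 1, Rpl34, was lower (log2 fold change -3.06 ± 0.340 SE, adjusted p = 0.00782), against 1.75% of all genes higher and 0.162% lower (1.92% in all). At an unadjusted p under 0.05 stood 4 members and 14.6% of all genes, and limma-voom on recovered fragments called 0 members higher and 1 lower. The sum of Rpl34 and Rpl34-ps1 had a log2 fold change of 0.15 ± 0.121 (SE, adjusted p = 0.651). Small positive values prevailed, with 69 of 84 members above 0 and a median of 0.13, against 0.02 for all genes. Other genes with transcripts under 1000 bases had a median of 0.14. The groups did not overlap for 6 of the 84 members (7.14%), against 18.7% of all genes.

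The members with the smallest p values did not pass. Rpl11, a large-subunit protein that binds Mdm2 when free of the ribosome, had 517, 393 and 428 FPKM in CWO epidermis and 315, 351 and 347 in vehicle epidermis. Its groups were apart, and the log2 difference of 0.39 had an adjusted p of 0.22. Rps2, a small-subunit protein near the mRNA entry, had 492, 434 and 422 FPKM in CWO epidermis and 318, 398 and 362 in vehicle epidermis, also apart, at 0.32 (adjusted p = 0.294). Rpl22l1 stood at 0.55 (adjusted p = 0.238), with 89.6 to 157 FPKM in CWO epidermis, against 72.8 to 89.9 in vehicle epidermis. On the other side, Rpl3l stood at -1.01 (adjusted p = 0.368), with the smallest p after Rpl34. Without the 2 vehicle libraries rich in muscle RNA, the members' median lay 0.24 above that of all genes instead of 0.11. That leaves 1 vehicle library, and 11 of all genes were called in place of 236, so the 0 members called there say little. Without vehicle library 3, Rpl3l was called lower (-1.59, adjusted p = 0.00618) and Rps27, one of the genes with a shared place, higher (2.45, adjusted p = 0.00432). That fit keeps only the 2 vehicle libraries rich in muscle RNA, and it called 654 of all genes (346 higher and 308 lower) in place of 236.

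In papillomas after 6 weeks of CWO, no ribosomal protein gene passed the test. The limma test called 0 of 83 members and 0.00821% of all genes. An unadjusted p below 0.05 was reached by 0 members and 2.51% of all genes, and limma-voom on fragments recovered from the FPKM also called 0 members. The members' median log2 fold change was 0.01, against -0.01 for all genes, and single values ran from -0.39 to 0.48. Both ends belonged to genes with a shared place, Rpl26 and Rps27. The groups were apart for 1 member (1.20%), against 6.61% of all genes. The members with the smallest p were Rpl11 at 0.15, Rps13 at 0.14 and Rpl27 at 0.12 on the one side and Rpl30 at -0.15, Rpl38 at -0.20 and Rpl31 at -0.08 on the other, with adjusted p = 1 for each. A p that misses the threshold does not show that the levels were equal. For Rplp1 the difference was 0.01 ± 0.12 (SE) and for Rps6 0.01 ± 0.087.

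Whether CWO acted differently in the 2 tissues was tested as a difference of the log2 fold changes. Of 85 members, 1 passed, Rpl34, with 3.21 ± 0.415 (SE, adjusted p = 0.00568) for papilloma minus epidermis, against 0.718% of all genes called, 0.0302% higher and 0.688% lower. On the sum with Rpl34-ps1 the difference was -0.18 (adjusted p = 0.812). The next in size among members with one entry at their place, Rpl22l1 at -0.59 (adjusted p = 0.442), Rpl3l at 0.52 (adjusted p = 0.862) and Rpl38 and Rpl41 at -0.45 each, did not pass.

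The authors' own counts of most of these genes were well below the number of fragments recovered from their FPKM. The fragments behind each FPKM were estimated from its deposited confidence interval and set against the mean normalised count of vehicle papillomas in the authors' deposited table. Whether the interval of genes with shared sequence reflects the number of fragments alone was not tested. For 10472 other genes with at least 100 fragments the authors' mean count came to a median of 101% of the recovered fragments (quartiles 99.5 and 104%). For 81 members it came to 42.5% (quartiles 13.3 and 82.3%), and 44 of them were under 50%, as were 2.60% of the other genes. In the authors' deposited table Rps6 reached 2.85% of the recovered fragments, Rpl3 8.81%, Rpsa 31.2%, Rplp0 68.8%, Rplp1 94.5% and Rpl22 103%. Rpl26, Rpl34-ps1, Gm15772, Gm9846 and Gm12191 had 0 counts in the authors' deposited table.

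**Figure D5:**
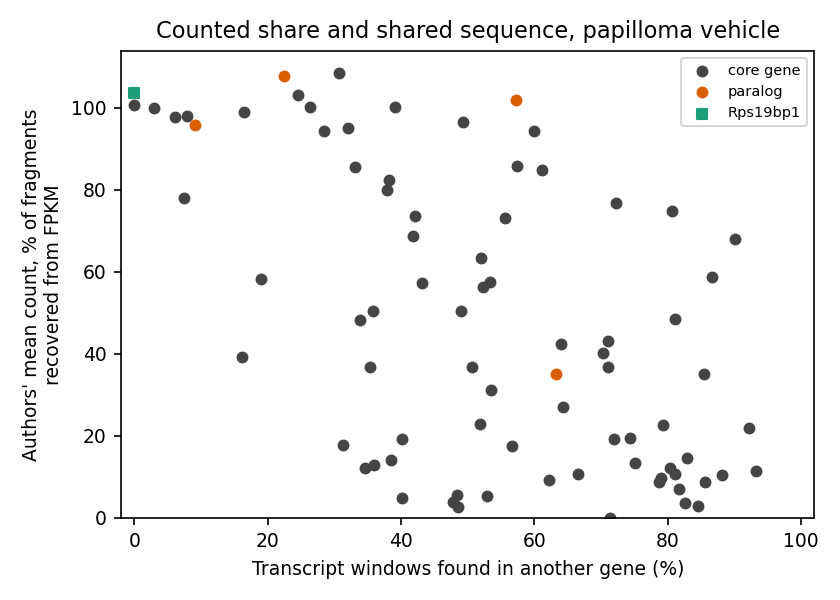
Authors' mean normalised count as a percentage of the fragments recovered from FPKM in vehicle papillomas, against the percentage of a member's 50-base transcript windows found in another gene; each point is 1 of 81 members. Members with under 10% of their windows shared lie between 78.0 and 104%, and those with more spread from 0 to 109%. Rps15a and Rps20 are under 10% on long transcripts of 5130 and 3706 bases, in which 307 and 272 windows were shared.

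Members that share more sequence with other genes tended to be counted less fully, with exceptions both ways. Of the 50-base windows along the members' transcripts, a median of 52.1% occurred exactly in another annotated gene (85 members), and 81 members shared windows with at least 1 pseudogene, at a median of 8. Rpl7a shared windows with 120 pseudogenes, Rpl29 and Rpl21 with 81 each and Rps2 with 71. Rpl39l, Rpl3l and Rps19bp1 were among those that shared none. Across the 81 genes the share of windows and the share counted had a Spearman correlation of -0.55, a description over genes that share libraries. Rps6 had 84.6% of its windows in common with other genes, Rpl3 85.6% and Rpl22 24.5%. Rplp1 with 60.0% and Rpl22l1 with 57.3% were counted nearly in full nonetheless, while Rpl39 with 16.2% and Rpl28 with 34.5% were counted at 39.3 and 12.1%. How the authors' counting treated fragments with several places was not tested.

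Both the fully and the poorly counted members were more often lower than higher in papillomas. Of the 17 members counted at 90% or more, 10 were lower (58.8%) and 2 higher (11.8%) under vehicle, with a median of -0.53. Of the 44 counted at under 50%, 34 were lower (77.3%) and 1 higher (2.27%), with a median of -0.43, against 38.2% lower and 31.7% higher of all genes. In the authors' deposited table for papillomas, 4 of 84 members with a p had one under 0.05, and 0 after adjustment (smallest adjusted p = 1), while 1.61% of all its genes were under 0.05. These were Rps6 (log2 fold change 1.01), Rpl9 (0.44), Rpl37a (0.41) and Rpl3l (-2.09) in the authors' deposited table. Rps6 there had a mean normalised count of 540.1 in CWO papillomas and 267 in vehicle papillomas, while its mean FPKM was 439 in CWO papillomas and 435 in vehicle papillomas. The authors' deposited table for epidermis held 176 genes with an adjusted p of at most 0.00544, and 0 members were among them.

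Related gene lists moved in different directions between the tissues. Fau, which encodes a small-subunit protein made as a fusion with a ubiquitin-like protein and lies outside the naming rule, was lower in papillomas, with a log2 fold change of -1.08 in vehicle-treated mice (adjusted p = 0.000106, limma) and -1.17 in CWO-treated mice (adjusted p = 3.12e-05, limma). It had 408, 448 and 396 FPKM in CWO papillomas and 439, 423 and 409.8 in vehicle papillomas, against 994, 879 and 943 in CWO epidermis and 842, 1034 and 827 in vehicle epidermis. Genes that build ribosomes went the other way: 26 of 32 biogenesis genes (81.25%) were higher and 1 lower under either treatment, with medians of 1.04 and 1.08, against 31.7% of all genes higher under vehicle and 29.1% under CWO. Nop56, a core protein of the snoRNPs that modify ribosomal RNA, had 80.8, 80.8 and 68.6 FPKM in CWO papillomas and 79.4, 77.4 and 77.1 in vehicle papillomas, against 18.8, 19.2 and 14.9 in CWO epidermis and 17.3, 13.2 and 20.9 in vehicle epidermis. Gnl3, the nucleolar GTPase nucleostemin, averaged 64.4 ± 6.91 FPKM in CWO papillomas and 14.7 ± 0.999 in CWO epidermis (SD, n = 3 each). The RNA helicase Ddx21, the methyltransferase Nop2 and the snoRNP protein Nop58 were higher as well. Of 11 cell cycle genes, 10 were higher and 0 lower under vehicle, and 9 were higher and 1 lower under CWO.

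Of a list of 19 other genes whose mRNAs carry the TOP motif, most of them translation factors but also Npm1, Vim and Hnrnpa1, 5 were higher (26.3%) and 8 lower (42.1%) in vehicle-treated mice, close to the 31.7% and 38.2% of all genes. In CWO-treated mice 2 were higher (10.5%) and 11 lower (57.9%), against 29.1% and 39.6% of all genes (medians -0.20 and -0.40). Npm1, a nucleolar chaperone, and Pabpc1, the poly(A)-binding protein, rose by 1.05 and 1.03 under vehicle, while Eif3f, a subunit of initiation factor 3, and Tpt1 fell under CWO by 0.90 and 0.82. Of 76 mitochondrial ribosomal proteins, 15 were higher (19.7%) and 29 lower (38.2%, the share of all genes) under vehicle, and 11 higher (14.5%) and 35 lower (46.1%) under CWO (medians -0.14 and -0.25). Of 19 growth and mTOR regulators, 8 were higher (42.1%) and 4 lower (21.1%) under vehicle, among them the S6 kinase Rps6kb2 at 0.82 and Mycl1, a member of the Myc family, at -2.54. Within a tissue, limma called 0 genes of the biogenesis, TOP, mitochondrial and growth lists after CWO in either epidermis or papillomas. At an unadjusted p under 0.05 in epidermis stood 2, 3, 10 and 2 of them in that order, against 14.6% of all genes. In papillomas 1 did, a mitochondrial one, against 2.51% of all genes. By contrast, 7 of 11 cell cycle genes (63.6%) were called higher in CWO epidermis, against 1.75% of all genes (median log2 fold change of the list 1.33).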

How the data were processed

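The data are polyadenylated RNA sequencing of 12 mouse libraries, 3 in each of 4 groups. Per the submitters' processing notes, bcl2fastq 1.8.4, TopHat2 2.0.4, Cufflinks 2.0.2, DESeq and mm9 were used. How fragments with several places were treated is not given in the sources used here. The authors deposited FPKM per gene with Cufflinks confidence intervals, per the file headers. Per the file headers, the authors' deposited comparison tables hold the mean normalised count of each group (a signal with no value per library), the CWO to vehicle ratio, its log2 and p-values. Values with a status other than OK were treated as missing, except in sums of entries at the same place, where Gm15772 and Gm9846 have the status LOWDATA in all 12 libraries. Entries of 1 symbol were summed. Fragments were recovered as the square of FPKM over its SD, taking the upper bound to lie 2 SD above the FPKM, and came to 11.1 to 24.6 M per library. Log2(FPKM + 1) of genes with at least 1 FPKM in 3 libraries was tested with limma 3.58.1 with an intensity trend (R 4.3.3), two-sided, Benjamini-Hochberg over all genes, after the scripts were tested on simulated data. No count test was the main test. Nothing says that epidermis libraries came from separate litters or days, so p-values measure the spread between these libraries.

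Members, lists, tests and alternatives were chosen with earlier results of these data known. Named were, in each comparison, the 6 called members with the largest change in each direction, or the 3 with the smallest p where fewer than 3 were called. Also named were the stalk genes, Rpsa, Rps6, paralog pairs, the 5 highest and 5 lowest members, the members that moved most relative to the median member, entries at a member's place, and the 3 genes with the smallest p in each other list, of which some are given by counts only. Single results of a few genes are not reported here, though counts and sums over the family include them. A pair of entries was taken as lying at the same place where they overlapped by at least 80% of the longer one.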

Additional observations from a re-analysis of the deposited data

Results flagged for a closer look

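The effect of CWO on Rpl34 differed between the tissues by a log2 value of 3.21 (papilloma minus epidermis), and this difference itself passed the test (limma, SE 0.415, adjusted p = 0.00568). On the sum of Rpl34 and Rpl34-ps1 it was -0.18 (adjusted p = 0.812). Rpl34 held 21.1, 19.0 and 20.1% of that sum in CWO papillomas, 20.3, 18.0 and 15.3% in vehicle papillomas, 14.5, 5.41 and 11.5% in CWO epidermis, and 99.99, 99.97 and 84.2% in vehicle epidermis.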

How the results depend on the processing

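Over 3897 combinations of a named member, a comparison and an alternative, 103 lost the call and 27 gained one without turning direction. In 32 the direction turned and the main fit, the alternative or both passed the threshold. The other 3735 stayed on their side of the threshold. These include values that passed in neither fit, whatever their direction. In epidermis the call of Rpl34 was lost, leaving 0 members lower, with the entry at the same place added (0.15), with no filter and with the muscle covariate. Without the muscle-rich vehicle libraries 1 and 2, which leaves 1 vehicle library assumed to vary like the others, 0 were called as well, with Rpl34 at -2.78 (adjusted p = 0.139). In vehicle-treated mice, members higher numbered 2 with at least 1 FPKM in every library, 22 scaled by the median ribosomal protein gene and 0 with the muscle covariate, and members lower 18 and 2 under the last pair. Of all genes, 3239 of 10674, 6409 of 12824 and 667 of 12824 were higher in the same order. Under the last pair 2359 and 848 of all genes were lower. In CWO-treated mice, members higher numbered 4 under quantile normalization and limma-voom, 1 with the entry at the same place added, and 16, with 10 lower, scaled by the median ribosomal protein gene. Of all 12724 genes, 4413, 3928, 3704 and 6904 were higher in the same order, with 2383 lower in the last setting. The difference between tissues called 0 members with the entry added or without the muscle-rich libraries (there Rpl34 at 2.92, adjusted p = 0.108). With the entry added, Rpl34 turned to -0.18 in that difference and -0.54 under CWO, Rpl26 to -0.90 and -1.04, and Rpl30 to -0.43 and -0.67 (vehicle and CWO). Scaled by the median ribosomal protein gene, which sets the family's shift to about 0 by construction, these turned positive in vehicle-treated mice: Rpl10 0.17, Rpl11 0.29, Rpl27 0.20, Rpl3 0.41, Rpl36al 0.37, Rpl39 0.45, Rpl7 0.23, Rps13 0.41, Rps2 0.22, Rps27l 0.061 and Rps6 0.22. In CWO-treated mice these did: Rpl10 0.058, Rpl11 0.13, Rpl27 0.20, Rpl3 0.42, Rpl36al 0.11, Rpl39 0.27, Rpl7 0.15, Rps13 0.50, Rps2 0.042, Rps27l 0.073, Rps29 0.048 and Rps6 0.023. With the muscle covariate Rpl27 was at 0.12 and Rps29 at 0.72 in vehicle-treated mice. The causes of the other changes were not tested.

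Leaving out 1 library at a time gave 0 to 1 members higher and 1 to 2 lower in epidermis, 0 called in papillomas, 4 higher and 47 to 63 lower in vehicle-treated mice, 1 to 2 higher and 61 to 70 lower in CWO-treated mice, and 1 higher for the difference. Of all genes, 46 to 346 were then higher and 5 to 308 lower in epidermis (12143 to 12196 tested). In vehicle-treated mice 3000 to 4280 were higher and 4093 to 4596 lower (12202 to 12237 tested). In CWO-treated mice 2771 to 3689 were higher and 4001 to 4763 lower (11992 to 12192 tested). The share of summed FPKM was 7.29 to 7.61% in CWO papillomas, 7.24 to 7.63% in vehicle papillomas, 11.4 to 11.98% in CWO epidermis and 10.9 to 11.8% in vehicle epidermis. Without muscle, keratin and mitochondrially encoded genes in the sum it was 8.13% in CWO papillomas, 8.03% in vehicle papillomas and 12.3% in CWO epidermis, and without the 100 highest other genes 11.6% in CWO papillomas, 11.4% in vehicle papillomas, 16.2% in CWO epidermis and 15.8% in vehicle epidermis. Nothing in the labels pairs same-numbered libraries, and the correlations of their deviations from the group means ran from -0.42 to 0.26. With the replicate block, 0 members were lower in epidermis, 4 were higher and 56 lower in vehicle-treated mice, 1 higher and 66 lower in CWO-treated mice, and 0 were called for the difference. Of all genes, 2 of 12315 were then lower in epidermis and 22 of 13228 called for the difference. In vehicle-treated mice 3830 of 12824 were higher and 4668 lower, and in CWO-treated mice 3552 of 12724 higher and 4859 lower.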
